A study of Mus musculus with 4 samples.

Results

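The genes described here carry glucose into the cell, break it down to lactate, or belong to the response to low oxygen. They were taken by symbol from a list of 32 names (glucose transporters, glycolytic enzymes, and the hypoxia-inducible factor HIF with its hydroxylases and response genes), and all 32 were among the 24421 genes listed in each library. Sequencing of poly(A) RNA covered 4 C57BL/6 mice, 2 labelled Usp25+/+ (animals 139 and 140) and 2 labelled Usp25-/- (animals 826 and 850), with 1 library per animal. Usp25 encodes an enzyme that removes ubiquitin from proteins, and the sources used here do not say which part of it the knockout lacks. Per the labels, all 4 were females of 8 weeks that drank 2.5% dextran sulfate sodium (DSS), which injures the colon lining, for 5 days and plain water for 2 days before a piece of distal colon was taken. No untreated animal was analysed here, so every comparison is between genotypes that share the DSS treatment.

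The libraries went against their labels in tissue and sex. Of 15 colon epithelium markers found, 6 to 9 per library were listed at 0, Cdx1, Zg16 and Aqp8 among them in all 4, and 3 to 6 reached 1 FPKM. Their sum was 205 to 452 FPKM, most of it Car4, with Lgals4 at 7.04 to 70.6 and Krt20 at 3.11 to 52.4 FPKM. The 16 lung epithelium markers summed to 2442 to 5540 FPKM (fragments per kilobase of transcript, scaled to the mapped fragments, the unit of all levels below), led by the surfactant genes Sftpb and Sftpc. Xist reached at most 0.110 FPKM, while the Y-linked Ddx3y was at 12.7 to 30.3 FPKM. For the targeted gene the genotype labels held in direction, with Usp25 at 38.5 FPKM in 139 and 16.6 in 140, but only 2.65 in 826 and 1.71 in 850, although with limma its adjusted p was 0.960. Library 139 stood apart in its neutrophil genes. The 19 neutrophil markers found summed to 50090 FPKM there against 979 in 140, 2538 in 826 and 1548 in 850, and 18 of the 19 were highest in 139. It also listed 20556 genes above 0, against 15603 to 17242 in the other libraries. Genotype differences that turn direction without it are given without it as well, here or with the processing alternatives, and levels are taken as those of the libraries as labelled by genotype, not as measurements of colon. The depth behind the values is unknown. In such bulk RNA, fewer cells of a type and less RNA per cell cannot be told apart.

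As background, glycolysis splits glucose into pyruvate in the cytosol, and lactate dehydrogenase turns pyruvate into lactate while restoring the NAD+ that the pathway consumes. When oxygen is scarce, the prolyl hydroxylases encoded by Egln genes no longer mark the HIF-1 alpha protein for destruction, and HIF then raises the transcription of glucose transporters, most glycolytic enzymes, Vegfa and other targets by binding short DNA motifs with the core ACGTG or GCGTG. HIF-1 alpha is controlled largely at the protein level, so that its own transcript need not follow its activity. Activated macrophages and neutrophils are known to rely strongly on glycolysis, also where oxygen is present.

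No glycolysis or hypoxia gene passed the test between the genotypes. With limma on log2(FPKM + 1), 31 of the 32 genes had a mean of at least 1 FPKM and were tested, and 0 of them passed an adjusted p of 0.05, against 0% of all 12011 tested genes. Their adjusted p-values lay between 0.960 and 0.999. At an unadjusted p of 0.05 limma called 0 of the 31, where 3.12% of all tested genes were called. The median log2 fold change (Usp25-/- minus Usp25+/+) was -0.14 over the 31 genes and 0.03 over all tested genes, and 21 of the 31 were negative, where 46.5% of all tested genes were. In 8 genes both Usp25-/- libraries lay below both Usp25+/+ libraries (25.8%; 14.7% of all tested genes), namely Hk1, Hk3, Gpi1, Pfkp, Pfkfb4, Gapdh, Pgam1 and Pkm. In 1 gene, Ndrg1, both lay above (19.0% of all tested genes). These counts turned on single libraries. With 1 left out, a genotype holds a single library and any gene overlaps less easily, so each count is set beside all tested genes in the same comparison. Without 139, limma called 3 of the 31 at an unadjusted p of 0.05 (4.81% of all tested genes), and 8 lay higher (35.7%) and 12 lower (36.8%) without overlap. Without 140, it called 7 (21.6% of all tested genes), and 6 lay higher (45.8%) and 18 lower (35.0%). The 7 calls among the 31 were thus near the share among all genes. Without 826, it called 0 (0.899% of all tested genes), and 1 lay higher (30.3%) and 17 lower (22.6%). Without 850, it called 1 (3.15% of all tested genes), and 9 lay higher (31.6%) and 9 lower (29.2%). In these 4 comparisons, 0 of the 31 passed an adjusted p of 0.05. The median was 0.17 without 850, the opposite direction, and -0.38 without 826. For any 1 gene, 2 libraries against 2 allow an exact permutation p of 0.333 at the lowest.

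**Figure D1:**
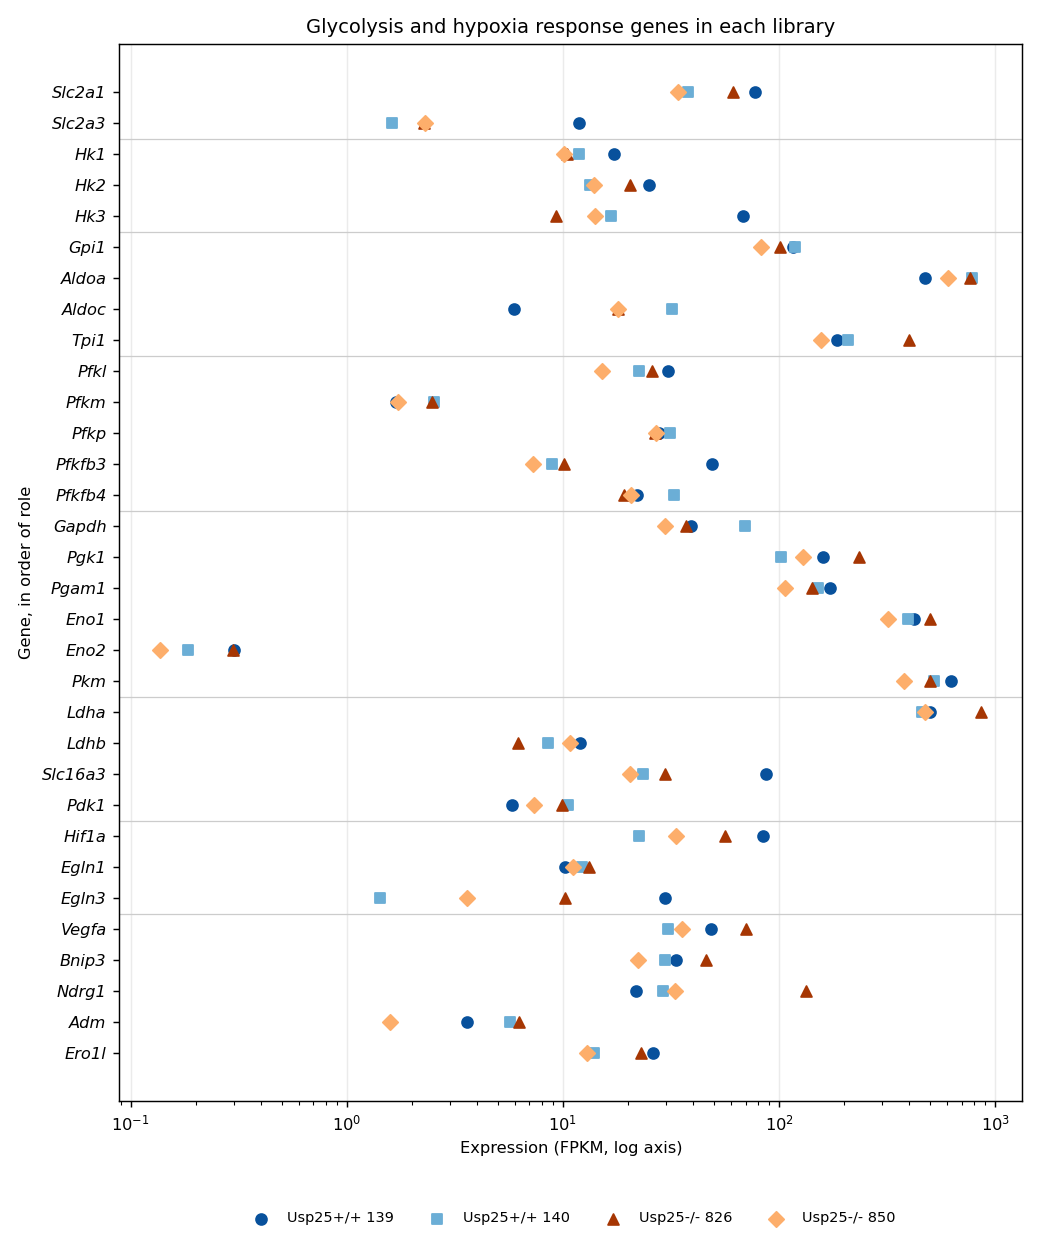
Expression of the 32 genes in each library, in FPKM on a log axis, with 1 point per library and genes ordered by role. Library 139 is the highest point for Hk3, Pfkfb3, Slc16a3 and Egln3, and library 826 for Ndrg1, Ldha, Tpi1 and Pgk1.

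Most of the genes differed more between animals of a genotype than between genotypes. The difference between the genotype means on log2(FPKM + 1) was larger than both differences within a genotype in 2 of the 31 genes, Gpi1 and Pkm, where 19.8% of all tested genes met this. The median of the larger difference within a genotype was 0.86 log2 units, against 0.61 over all tested genes. The median absolute difference between genotypes was 0.35, against 0.28 over all tested genes. The larger of 2 differences between single libraries tends to exceed a difference of means, so the first median is the larger one for all genes too. Library 850 was the highest of the 4 for 0 of the 31 genes (17.5% of all tested genes were highest there) and the lowest for 14 (12.8% of all tested genes). The highest library was 139 for 14 genes (29.9% of all tested genes), 826 for 9 (25.4%) and 140 for 8 (27.2%). In 16 of the 31 genes, 139 exceeded 140 and 826 exceeded 850, which 23.9% of all tested genes did. All 8 tested genes of HIF, its hydroxylases and its response were higher in 826 than in 850, with a median difference of 0.98 log2 units, where 48.5% of all tested genes were higher there. Of the 8, 5 were also higher in 139 than in 140. The glycolysis genes were higher in 826 than in 850 in 17 of 23, but the other hypoxia pathway genes described last in only 21 of 40, with a median difference of 0.05. These are descriptions of 4 libraries, without a test.

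**Figure D2:**
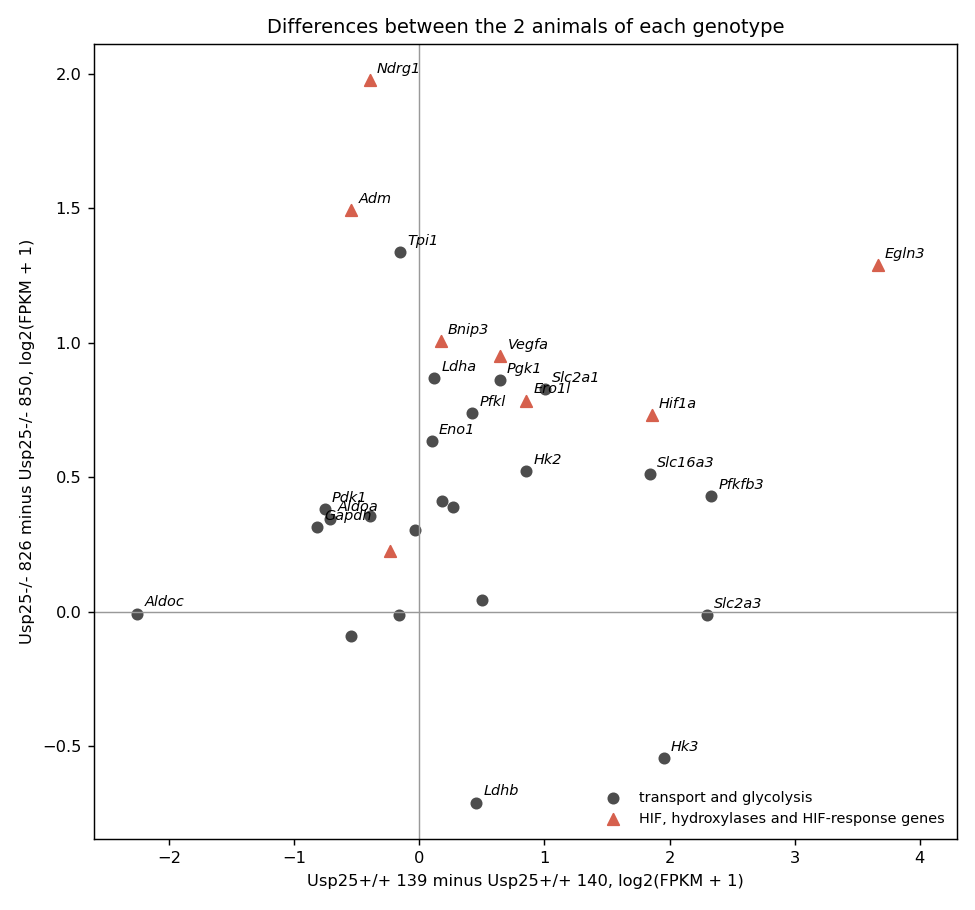
For each of the 31 tested genes, the difference between the Usp25+/+ animals (139 minus 140, horizontal) and between the Usp25-/- animals (826 minus 850, vertical), both in log2(FPKM + 1). Triangles are the 8 genes of HIF, its hydroxylases and its response, and all 8 lie above the horizontal zero line.

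Glucose transporters were highest in 139. Slc2a1, the widespread transporter GLUT1 (chr4:118781316-118809935 in mm9), stood at 77.1 and 37.9 FPKM in libraries 139 and 140 against 61.0 and 34.0 FPKM in 826 and 850. The means of 57.5 ± 27.7 and 47.5 ± 19.1 FPKM (SD, n = 2 each) differed by less than the SD of either genotype. Its log2 fold change was -0.24 (SE 0.49), and it turned to 0.26 without 139 and to 0.17 without 850. Slc2a3, the high-affinity transporter GLUT3 of neurons and white blood cells, stood at 11.9 and 1.63 FPKM in 139 and 140 against 2.27 and 2.30 FPKM in 826 and 850. Library 139 was thus 5.18 times the next highest, and the other 3 lay close together. The log2 fold change of -0.83 (SE 0.77) became 0.32 without 139.

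Of the hexokinases, which trap glucose in the cell by phosphorylating it, Hk3 varied most. Hk3, known from myeloid cells (chr13:55107346-55122746 in mm9), stood at 67.8 and 16.8 FPKM in the Usp25+/+ pair against 9.34 and 14.1 FPKM in the Usp25-/- pair. Both Usp25-/- libraries lay below both Usp25+/+ libraries, by 0.24 log2 units at the nearest pair. Its log2 fold change was the most negative of the 31, at -1.49 (SE 0.68; limma unadjusted p = 0.0800, adjusted p = 0.960), and shrank to -0.51 without 139. It was -2.46 without 140. Hk1, the housekeeping form, stood at 17.3 and 11.9 against 10.5 and 10.1 FPKM, again without overlap, and its log2 fold change of -0.44 (SE 0.31) shrank to -0.19 once 139 was left out. Hk2, the inducible form, was at 25.0 and 13.4 against 20.5 and 13.9 FPKM, so that each genotype held a higher and a lower library. The neutrophil marker sums given above were likewise highest in 139, and their part in the levels of the genes highest there, from Slc2a3 and Hk3 to Pfkfb3, Slc16a3, Hif1a and Egln3, was not tested.

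Phosphofructokinase commits sugar to glycolysis, and the PFKFB enzymes make its activator fructose 2,6-bisphosphate. Pfkfb3, the inducible form with high kinase activity (chr2:11393057-11423728 in mm9), stood at 49.1 and 8.94 FPKM in the Usp25+/+ pair against 10.1 and 7.24 FPKM in the Usp25-/- pair. Library 139 was 4.86 times the next highest, and 140 lay between the Usp25-/- libraries. The log2 fold change of -1.22 (SE 0.78) was -0.056 without 139 and -2.39 without 140. Pfkfb4 did not share this pattern. It was highest in 140, at 22.1 and 32.8 FPKM in 139 and 140 against 19.3 and 20.6 FPKM, without overlap (log2 fold change -0.42, SE 0.32; -0.14 without 140 and -0.69 without 139). Among the phosphofructokinase subunits, Pfkp (platelet type) was nearly level at 27.8 and 31.3 against 26.7 and 26.9 FPKM (log2 fold change -0.13, SE 0.28; -0.22 without 139 and -0.051 without 140). Pfkl (liver type) was at 30.5 and 22.5 against 25.9 and 15.1 FPKM, lowest in 850, and its log2 fold change of -0.38 (SE 0.38) was -0.015 without 850, -0.17 without 139 and -0.75 without 826. Pfkm (muscle type) did not exceed 2.55 FPKM in any library.

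Apart from the lower Aldoc, the enzymes of upper glycolysis were abundant, and they followed other libraries than the transporters. Aldoa, the main aldolase, which splits the 6-carbon sugar, was listed at 475 and 780 FPKM in 139 and 140 against 767 and 603 FPKM in 826 and 850. Its lowest library was 139, and the log2 fold change of 0.16 (SE 0.43) became -0.20 without it. Aldoc, known as the brain form, spread further, at 5.93 and 32.1 against 18.0 and 18.1 FPKM. The Usp25-/- libraries lay together between the Usp25+/+ libraries, which differed 5.40-fold. Tpi1, triosephosphate isomerase, stood at 186 and 208 against 398 and 157 FPKM, with 826 at 1.91 times the next highest library (log2 fold change 0.34, SE 0.52; -0.33 without 826). Gpi1, glucose-6-phosphate isomerase, was listed at 116 and 119 FPKM in the Usp25+/+ pair against 102 and 82.2 FPKM in the Usp25-/- pair. The means were 118 ± 1.78 and 91.9 ± 13.7 FPKM (SD, n = 2 each), a log2 fold change of -0.36 (SE 0.31) that stayed between -0.51 and -0.21 whichever library was left out.

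In lower glycolysis, which yields ATP and pyruvate, Pkm was the most abundant of the 32 genes in library 139. Pkm, the pyruvate kinase of most tissues, stood at 627 and 520 FPKM in the Usp25+/+ pair against 498 and 380 FPKM in the Usp25-/- pair. The libraries did not overlap, and the log2 fold change was -0.39 (SE 0.37; limma adjusted p = 0.960), between -0.59 and -0.20 with any library left out. Pgam1, phosphoglycerate mutase, also stood lower without overlap, at 172 and 152 against 142 and 107 FPKM (log2 fold change -0.39, SE 0.33; -0.18 without 850 and -0.59 without 826). Eno1, the main enolase, overlapped instead. It was listed at 423 and 395 against 498 and 321 FPKM, with the highest and the lowest library both in Usp25-/-. The log2 fold change of Eno1 was -0.033 (SE 0.39), and 0.016 without 139. Pgk1, phosphoglycerate kinase, was highest in 826, at 160 and 102 against 235 and 129 FPKM (log2 fold change 0.44, SE 0.45), which was 0.0074 without 826. Eno2, the neuronal enolase, did not exceed 0.301 FPKM and was not tested.

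Gapdh stood far below its neighbours in the pathway, at 39.1 and 69.6 FPKM in Usp25+/+ and 37.0 and 29.6 FPKM in Usp25-/-, although the levels are per length. On the log2 scale the genotypes differed by -0.64 (SE 0.39), by -0.24 without 140 and by -1.05 without 139. The coding sequence of Gapdh matched the mm9 genome at 139 places outside the gene, counting matches of at least 90% identity over at least 80% of its length. Of the 32 genes, 10 had such a copy. Besides Gapdh these were Eno1 and Ldha with 6 each, Aldoa, Pgam1 and Bnip3 with 4 each, Pgk1 and Pkm with 2 each, and Tpi1 and Ldhb with 1 each. Reads can be split between these places, so the levels of these 10 genes are uncertain, most of all that of Gapdh. Eno1b, a copy of Eno1 with its own entry, was listed at 64.7, 57.5, 85.7 and 41.9 FPKM in 139, 140, 826 and 850, the same order of libraries as Eno1.

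The lactate genes split between both patterns. Ldha, the lactate dehydrogenase subunit that favours lactate formation (chr7:54096845-54110997 in mm9), stood at 500 and 460 FPKM in the Usp25+/+ pair against 864 and 473 FPKM in the Usp25-/- pair. Library 826 was 1.73 times the next highest and the other 3 lay close together. The log2 fold change of 0.41 (SE 0.44) was -0.020 without 826 and 0.85 without 850. Slc16a3, the transporter MCT4 that exports lactate, was at 87.1 and 23.5 against 29.7 and 20.5 FPKM. Library 139 exceeded the next highest 2.93-fold, and the log2 fold change of -0.85 (SE 0.65) became 0.068 without it. Ldhb, the subunit that favours lactate use, stood at 12.1 and 8.53 against 6.19 and 10.8 FPKM and was lowest in 826, where Ldha was highest. Pdk1, the kinase that keeps pyruvate out of mitochondria, was at 5.84 and 10.6 against 9.91 and 7.37 FPKM and overlapped between the genotypes.

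Egln3 varied widely within each genotype, Hif1a mainly between the Usp25+/+ animals, and Egln1 hardly varied. Hif1a, which encodes HIF-1 alpha (chr12:75002362-75048517 in mm9), stood at 84.1 and 22.5 FPKM in the Usp25+/+ pair against 56.0 and 33.4 FPKM in the Usp25-/- pair. The Usp25-/- libraries lay between the Usp25+/+ libraries, and the log2 fold change of -0.015 (SE 0.68) was 0.91 without 139 and -0.94 without 140. Egln3, the hydroxylase PHD3 and itself a HIF target (chr12:55279968-55304847 in mm9), had the widest spread of the 32 genes, at 29.7 and 1.42 FPKM in 139 and 140 against 10.2 and 3.59 FPKM in 826 and 850. The highest value was 20.9 times the lowest, both in Usp25+/+. Its log2 fold change of -0.26 (SE 1.24) ranged from -2.10 without 140 to 1.57 without 139. Egln1, the main oxygen-sensing hydroxylase PHD2, lay between 10.3 and 13.2 FPKM in all 4 libraries.

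Of the HIF-response genes, Ndrg1 stood highest in Usp25-/- relative to Usp25+/+. Ndrg1, a stress-induced gene (chr15:66760883-66801202 in mm9), stood at 21.9 and 29.1 FPKM in the Usp25+/+ pair against 133 and 33.0 FPKM in the Usp25-/- pair. The means were 25.5 ± 5.11 and 82.9 ± 70.6 FPKM (SD, n = 2 each). Both Usp25-/- libraries lay above, 850 by 0.17 log2 units over 140 and 826 at 4.03 times 850. The log2 fold change of 1.36 (SE 0.69; limma unadjusted p = 0.102, adjusted p = 0.960) was the largest of the 31 and was 0.37 without 826. Vegfa, which drives blood vessel growth, stood at 48.6 and 30.6 against 70.1 and 35.8 FPKM, highest in 826 (log2 fold change 0.37, SE 0.45). Bnip3, a mitophagy receptor, was at 33.4 and 29.6 against 45.9 and 22.4 FPKM, with both extremes in Usp25-/-. The peptide hormone gene Adm showed the same extremes at a low level, 3.60 and 5.70 against 6.30 and 1.59 FPKM. Ero1l, an oxidase that forms disulfide bonds in the endoplasmic reticulum, was at 26.0 and 13.9 against 23.0 and 12.9 FPKM, with a higher and a lower library in each genotype. Other genes were also highest in 826. The 3 tested erythroid markers were all highest there, as were 4 of the 6 tested colon epithelium markers (25.4% of all tested genes were). These 4 were also higher in 850 than in either Usp25+/+ library, so that their genotypes did not overlap. Of all tested genes, 19.0% lay higher in Usp25-/- without overlap. Krt20 was at 4.31 and 3.11 FPKM in 139 and 140 against 52.4 and 7.35 FPKM in 826 and 850, and Lgals4 at 7.04 and 9.83 against 70.6 and 28.8 FPKM. Guca2a stood at 0.341 and 0.868 against 16.6 and 3.89 FPKM, and Phgr1 at 0 and 3.81 against 34.4 and 9.44 FPKM. Ndrg1 had the same split between the genotypes as these 4. The remaining tested colon markers did not share it. Car4 was highest in 140, at 399 FPKM against 277 in 826, and Tff3 was above 0 only in 850, at 7.25 FPKM. The whole erythroid list summed to 38.0 FPKM in 826 and to 4.35 to 16.5 FPKM in the other libraries, and the colon list to 452 against 205 to 424 FPKM. The part of these markers in the values of 826, and in the genotype difference of Ndrg1, was not tested. For genes highest in 140, such as Aldoc and Pfkfb4, all 10 endothelial markers were highest in 140 too, with a sum of 322 FPKM against 107 to 211 FPKM, and their part was not tested either.

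**Figure D3:**
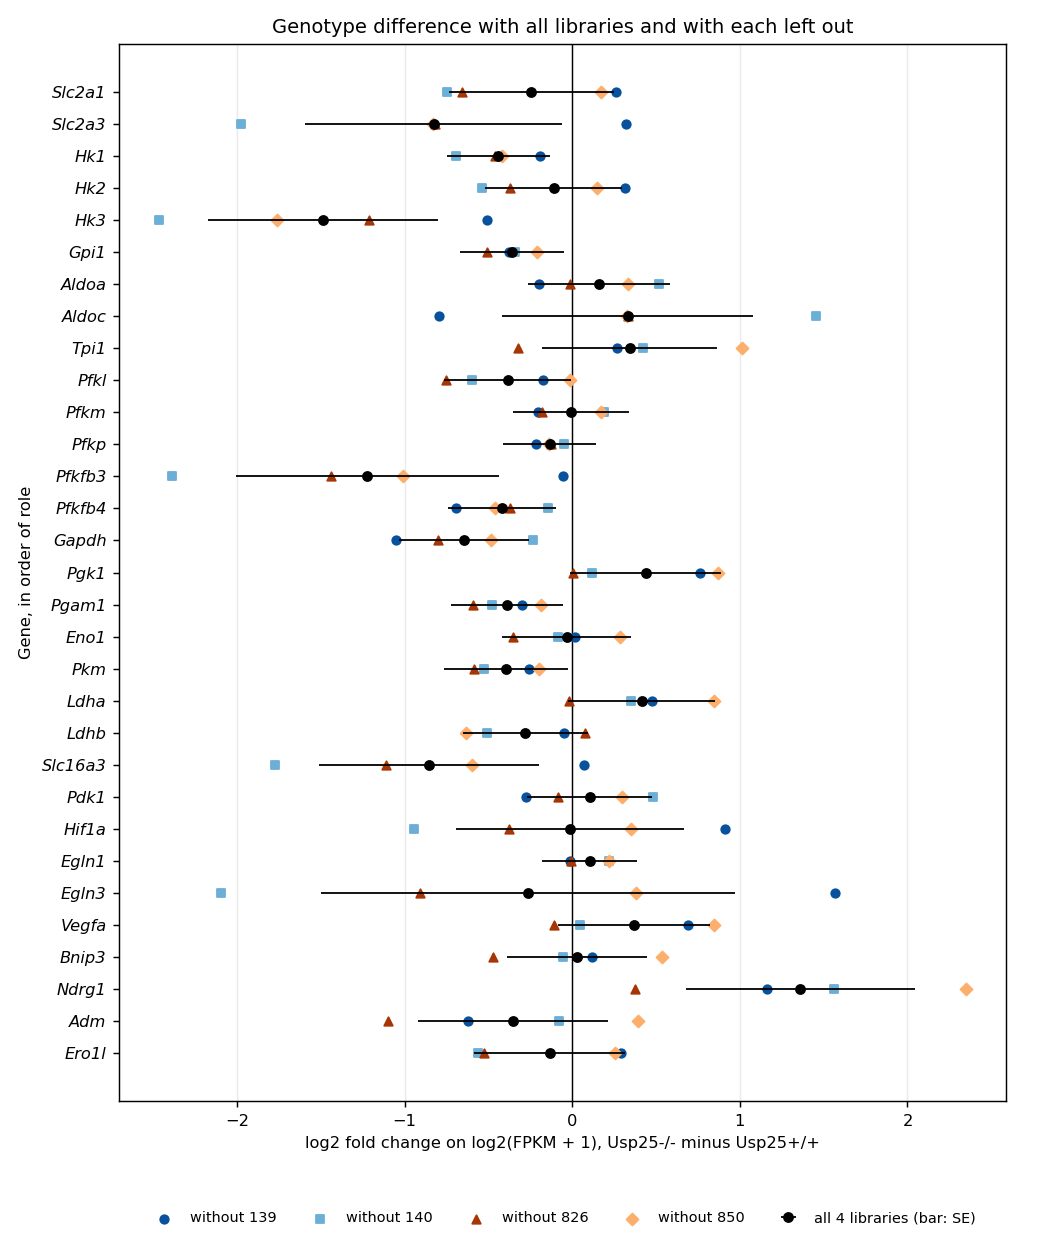
Log2 fold change between the genotypes on log2(FPKM + 1) for the 31 tested genes (black, bar: SE), with the values after leaving out each library in colour. The coloured points of 19 genes lie on both sides of zero. Those of 12 genes, among them Hk1, Hk3, Gpi1, Pkm and Ndrg1, stay on the side of the black point. In the genes named, the genotypes do not overlap, so leaving out a library could not turn their direction.

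The make-up of the hexokinase pool differed between libraries more than that of the other enzyme families. Hk3 made up 61.6% of the summed hexokinase FPKM in 139, 39.9% in 140, 23.2% in 826 and 36.9% in 850. Its mean share was 50.7 ± 15.3% in Usp25+/+ and 30.0 ± 9.69% in Usp25-/- (SD, n = 2 each), 20.7 percentage points apart with the lower value in Usp25-/- (exact permutation test, two-sided, p = 0.333, the smallest these groups allow; adjusted p = 0.952 over 10 shares). Hk2 took the larger share in Usp25-/-, at 50.8% and 36.5% in 826 and 850 against 22.7% and 31.8% in 139 and 140 (exact permutation p = 0.333). The shares of Hk2 and Hk3 were the 2 of 10 whose direction held whichever library was left out. Both were without overlap between the genotypes, so leaving out a library could not turn their direction. Neither passed the exact permutation test, which could not go below 0.333 with these groups. The size of these 2 differences did not hold. The Hk3 difference was -9.87 percentage points without 139, -13.9 without 826 and -31.5 without 140, and that of Hk2 was 9.27 without 826, 11.9 without 139 and 23.5 without 850, against 16.4 with all libraries. The summed hexokinase FPKM was 110 in 139 and 38.2 to 42.1 in the others. Pfkp made up 46.3% to 61.4% of phosphofructokinase FPKM and Pfkm at most 4.52%. Aldoc did not exceed 3.95% of aldolase, Ldhb 2.36% of lactate dehydrogenase and Eno2 0.0710% of the enolase pair, so that Aldoa, Ldha and Eno1 made up nearly all of these pools in all 4 libraries.

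**Figure D4:**
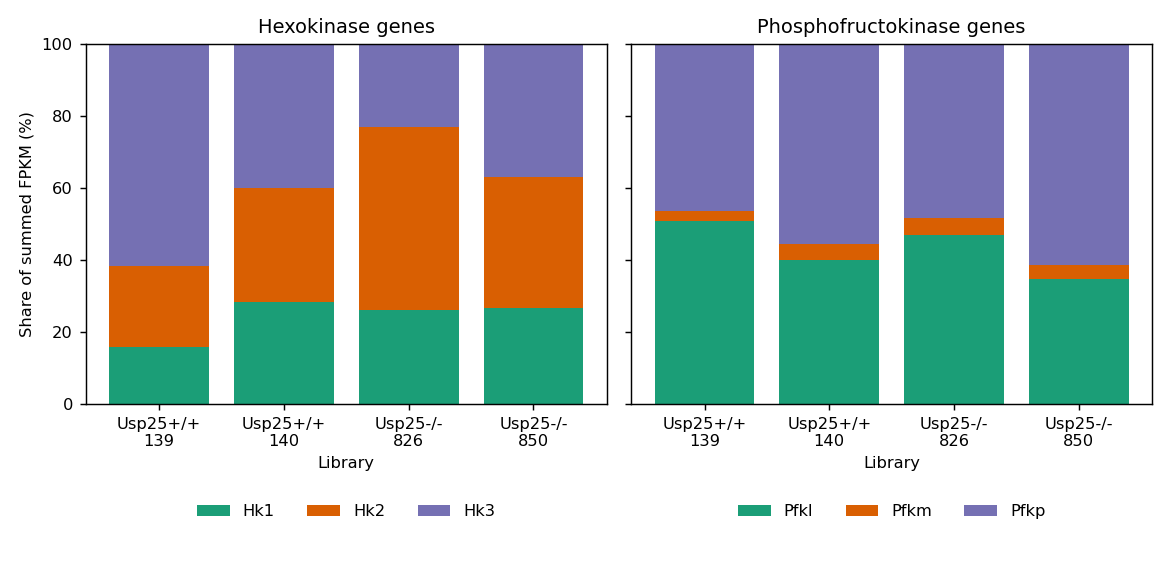
Share of each gene in the summed FPKM of the hexokinase and phosphofructokinase families, in percent, with 1 stacked bar per library. Hk3 ranges from 23.2% in Usp25-/- 826 to 61.6% in Usp25+/+ 139, while the phosphofructokinase bars are closer to each other.

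Promoters were searched for the core letters of the HIF motif. RefSeq promoter windows on GRCm38.p6 were found for 30 of the 32 genes, not for Slc2a3 and Ndrg1, and the 250 bases before each annotated start were read on both strands. The letters ACGTG occurred in 20 of 44 windows of these genes (45.5%), against 16.6% of all 32851 windows, and GCGTG in 23 of 44 (52.3%), against 28.2%. Windows of the same gene can overlap and hold the same match, as for Aldoa. Counted by gene, with any window sufficing, ACGTG occurred in 17 of 30 (56.7%), against 18.5% of 27025 genes. GCGTG occurred in 19 of 30 (63.3%), against 30.9%. The palindrome CACGTG holds ACGTG on both strands and is counted for each. A match is only a run of letters and does not show that HIF binds there. The stretches shown are the 160 bases before the start with the most ACGTG matches, for 6 genes that hold one. Hk3, Pgam1 and Pkm are shown because their genotypes did not overlap, and Pfkfb3, Pfkm and Ldha because, of the genes with a match, they exceeded the next library by the widest ratio among those highest in 139, 140 and 826. For Pfkm that ratio was only 1.02. The stretches lie at chr13:55021386-55021545, minus strand for Hk3, chr19:41911711-41911870, plus strand for Pgam1, chr9:59657067-59657226, plus strand for Pkm, chr2:11502091-11502250, minus strand for Pfkfb3, chr15:98092429-98092588, plus strand for Pfkm and chr7:46845644-46845803, plus strand for Ldha. Capitals mark ACGTG, or CACGT where the letters lie on the other strand, and all are written 5′ to 3′ on the strand of the gene.
Hk3: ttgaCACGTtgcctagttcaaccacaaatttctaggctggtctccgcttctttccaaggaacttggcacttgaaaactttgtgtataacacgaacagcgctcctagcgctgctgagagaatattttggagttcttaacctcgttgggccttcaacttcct
Pgam1: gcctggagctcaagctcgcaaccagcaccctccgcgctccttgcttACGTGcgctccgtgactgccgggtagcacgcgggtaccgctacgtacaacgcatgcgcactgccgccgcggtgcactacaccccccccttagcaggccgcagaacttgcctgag
Pkm: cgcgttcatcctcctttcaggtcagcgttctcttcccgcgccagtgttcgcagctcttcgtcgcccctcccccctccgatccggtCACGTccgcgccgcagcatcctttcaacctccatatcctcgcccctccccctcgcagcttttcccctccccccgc
Pfkfb3: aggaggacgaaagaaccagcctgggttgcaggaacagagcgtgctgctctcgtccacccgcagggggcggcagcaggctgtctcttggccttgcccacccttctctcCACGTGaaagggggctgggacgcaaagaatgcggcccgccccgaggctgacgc
Pfkm: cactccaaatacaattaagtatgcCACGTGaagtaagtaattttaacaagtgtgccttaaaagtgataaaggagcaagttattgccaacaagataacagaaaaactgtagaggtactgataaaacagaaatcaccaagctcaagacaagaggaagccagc
Ldha: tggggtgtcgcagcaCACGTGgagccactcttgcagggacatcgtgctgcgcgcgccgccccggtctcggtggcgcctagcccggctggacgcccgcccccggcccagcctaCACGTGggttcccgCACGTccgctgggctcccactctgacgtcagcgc
Ldha held 5 matches in its 160 bases, from 2 palindromes and a further match. Pfkfb3 and Pfkm held 2 each, both from a palindrome, and Hk3, Pgam1 and Pkm held 1 each. Genes with a match included some that were lower without overlap in Usp25-/- as well as Ldha, which was highest in 826.

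In the wider pathway, 0 of 84 tested genes passed limma at an adjusted p of 0.05. Of 23 other genes of glucose transport and glycolysis, 10 had a positive and 13 a negative log2 fold change (median -0.03), and 7 lay higher (30.4%, against 19.0% of all tested genes) and 2 lower (8.70%, against 14.7%) without overlap. The median was 0.09 without 139. Slc2a6, a transporter of myeloid cells, stood at 35.1 and 3.43 FPKM in 139 and 140 against 5.20 and 3.77 FPKM in 826 and 850, the same outlying 139 as Slc2a3 (log2 fold change -1.22, SE 0.98; 0.30 without 139). Pygl, liver glycogen phosphorylase, was at 128 and 77.9 against 65.6 and 67.5 FPKM, and its log2 fold change of -0.58 (SE 0.36) was -0.22 without 139. On the higher side were Bsg, the chaperone of lactate transporters, at 255 and 283 against 448 and 287 FPKM (log2 fold change 0.41, SE 0.38; 0.095 without 826), and Ldhd, a D-lactate dehydrogenase, at 3.19 and 4.59 against 7.70 and 4.84 FPKM (log2 fold change 0.56, SE 0.35; 0.27 without 826 and 0.35 without 139).

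Genes that lead pyruvate into mitochondria, make glucose or run the pentose phosphate pathway had a median log2 fold change of 0.28 over 21 tested, with 15 positive and 6 negative (46.5% of all tested genes were negative). Without overlap, 8 lay higher (38.1%, against 19.0% of all tested genes) and 1 lower (4.76%, against 14.7%). Without 139, 10 were positive and 11 negative, with a median of -0.0040. Fbp2 was the 1 gene of this list under an unadjusted p of 0.05 (4.76%, against 3.12% of all tested genes). Fbp2, the muscle form of fructose bisphosphatase, was at 1.94 and 2.81 FPKM in the Usp25+/+ pair against 18.0 and 6.72 FPKM in the Usp25-/- pair, which gave a fold change on the log2 scale of 1.86 (SE 0.50; limma unadjusted p = 0.0128, adjusted p = 0.960), or 1.21 without 826. Of the 10 skeletal muscle markers, 9 were under 2 FPKM in every library, and Tnni2 lay between 5.17 and 15.9 FPKM. Pgls, of the pentose phosphate pathway, stood at 31.4 and 142 against 120 and 111 FPKM, low in 139 alone, and its log2 fold change of 0.77 (SE 0.73) was -0.30 without 139. G6pdx, which opens that pathway, had a log2 fold change of -0.37 (SE 0.29) and Pdk4, which like Pdk1 holds pyruvate back from mitochondria, of -0.36 (SE 0.53), which was 0.38 without 140.

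Of 40 other hypoxia pathway genes, 21 had a positive and 19 a negative log2 fold change (median 0.06), and 8 lay higher (20%, against 19.0% of all tested genes) and 6 lower (15%, against 14.7%) without overlap, shares close to those of all genes. Car9, a carbonic anhydrase that is a classical HIF target, was listed at 5.24 and 2.92 FPKM in the Usp25+/+ pair against 26.4 and 9.26 FPKM in the Usp25-/- pair, which gave a fold change on the log2 scale of 1.76 (SE 0.55; limma unadjusted p = 0.0233, adjusted p = 0.960), or 1.05 without 826. Stc2, a stress-induced secreted glycoprotein, stood at 0.942 and 0.154 against 5.30 and 2.35 FPKM (log2 fold change 1.62, SE 0.49). In Car9, Stc2 and Fbp2 826 was the highest library and 850 the next. The colon epithelium markers Krt20, Lgals4, Guca2a and Phgr1 given above had the same order, while Car4 and Tff3 of that list did not. The part of these markers was not tested. Cited2, a brake on HIF activity, was lower without overlap, at 36.9 and 26.7 against 12.2 and 20.3 FPKM (log2 fold change -0.95, SE 0.37; -0.60 without 826). Nos2, the inducible nitric oxide synthase, was at 67.7 FPKM in 139 and at most 1.61 FPKM elsewhere, with a log2 fold change of -2.71 (SE 1.54) that was -0.30 without 139. Car9, Stc2, Cited2 and P4ha2 were the 4 genes of this list under an unadjusted p of 0.05 (10%, against 3.12% of all tested genes). Without 826, the log2 fold change of Stc2 was 1.16, and that of P4ha2 was 0.81 instead of 1.00. P4ha2, a collagen prolyl hydroxylase named here after its value was seen, stood at 5.70 and 3.50 against 11.6 and 8.61 FPKM.

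**Figure D5:**
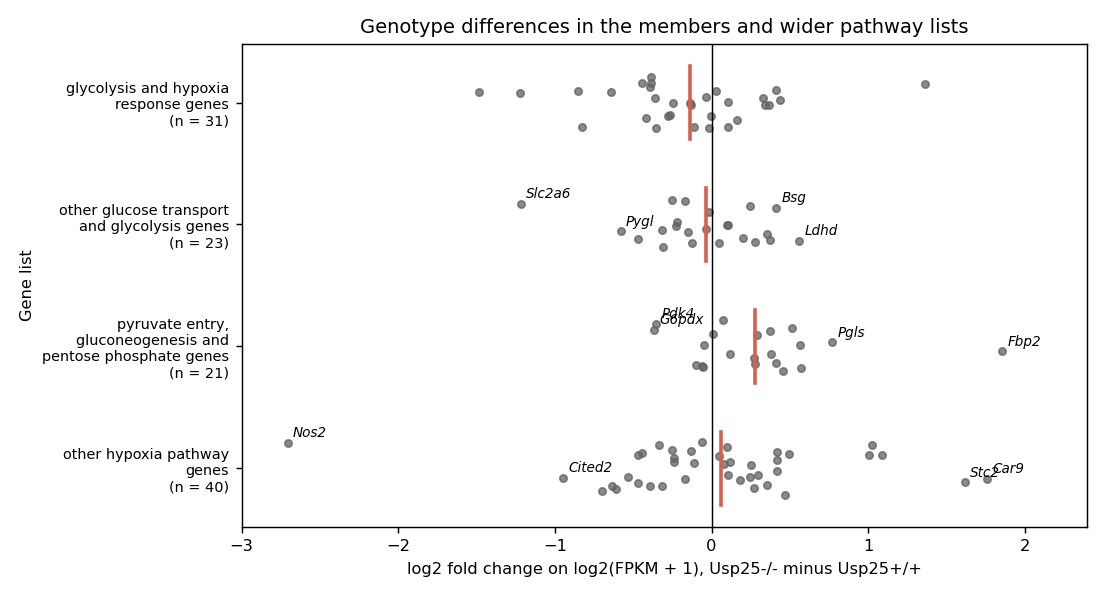
Log2 fold change between the genotypes on log2(FPKM + 1), with 1 point per tested gene (31 genes of the main list and 23, 21 and 40 of the wider lists) and red lines at the medians of -0.14, -0.03, 0.28 and 0.06. Vertical position within a list is random, and the named genes are the 2 at each end of a wider list.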

How the data were processed

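The deposited values are taken as FPKM (fragments per kilobase, scaled to mapped fragments), because the submitters' processing notes name Cufflinks, with cutadapt, TopHat2 2.1.1 and build mm9. No header or label states the unit, the annotation, the filters or the scaling. Library preparation was non-directional per the labels' protocols, so reads of overlapping genes cannot be told apart. Whole reads could not be recovered, so depth is unknown and counting error has no interval here. The labels name 2 animals per genotype, and batches of library handling are not stated, so p-values measure the spread between these animals' libraries.

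The 12011 of 24421 genes whose mean reached 1 FPKM were fitted on log2(FPKM + 1), a scale that understates the change of low genes, with limma 3.58.1 in R 4.3.3 (eBayes with trend, 2 residual degrees of freedom, two-sided), with Benjamini-Hochberg adjustment over all tested genes and a threshold of 0.05. The fit was also run on simulated data, with noise drawn independently for each gene and library. Such data hold no shift shared by many genes of 1 library, like that of the neutrophil genes in 139. They therefore do not show how the fit behaves with such a shift. Shares within enzyme families were compared with exact permutation tests in scipy 1.17.1. Gene positions come from GENCODE vM1 (NCBIM37, that is mm9), copies from blastn against it, and promoters from RefSeq on GRCm38.p6. The genes and lists were chosen with earlier results of these data known. All 32 genes are described, and of each wider list the 2 genes at either end. Promoters are shown for genes with a motif match whose genotypes did not overlap or that had the widest gap in a library, a rule applied to each library after values were known. Neuron and neuroendocrine, heart muscle and macrophage markers were also summed: the neuron list gave 13.4 to 26.7 FPKM and the heart list 2.95 to 6.69 FPKM. The macrophage list gave 20205 to 49861 FPKM, lowest in library 139. Most of that sum was Lyz2, at 12613 FPKM in 139 and 38922 in 140. The list median was lowest in 850 instead, at 74.5 FPKM against 96.2 in 139. Of the 16 macrophage markers, 4 were highest in 139 and 8 in 140. Alternatives were other pseudocounts, filters, scalings and variance models, and leaving out each library.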

Additional observations from a re-analysis of the deposited data

How the results depend on the processing

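No paired analysis was possible, because the libraries of the genotypes come from different animals and no label pairs them. Under other pseudocounts (0.1 and 0.5), filters, scalings and variance models, the number of genes past an adjusted p of 0.05 stayed at 0, over 28 genes tested at a mean of at least 5 FPKM, 32 with no filter and 31 otherwise. The counts without overlap stayed at 8 lower and 1 higher under the pseudocounts, filters and scalings, and are not affected by the variance model. Each fold change kept its direction where the gene was tested, with 1 exception. That was Bnip3, at 0.030 in the main analysis and -0.020 under median of ratios scaling. The median over all tested genes went from 0.034 to -0.0098 under the same scaling, and the cause for Bnip3 was not tested. Leaving out a library changed more, and left 1 library in a genotype that was assumed to vary like the other. The number past an adjusted p of 0.05 stayed at 0, while that past an unadjusted p of 0.05 ranged from 0 to 7 (0.899% to 21.6% of all tested genes), genes higher without overlap from 1 to 9 (30.3% to 45.8%), and genes lower without overlap from 9 to 18 (22.6% to 36.8%). The median log2 fold change ranged from -0.38 to 0.17. Where the genotypes did not overlap with all libraries, leaving out a library could not turn the direction. This was so for the 8 genes lower and the 1 higher (14.7% and 19.0% of all tested genes). The share of all tested genes whose direction turned was not counted. Directions held for 12 genes and turned for 19, whose log2 fold changes ranged from -0.75 to 0.26 (Slc2a1), -1.97 to 0.32 (Slc2a3), -0.54 to 0.32 (Hk2), -0.20 to 0.52 (Aldoa), -0.80 to 1.46 (Aldoc), -0.33 to 1.01 (Tpi1), -0.20 to 0.19 (Pfkm), -0.35 to 0.28 (Eno1), -0.020 to 0.85 (Ldha), -0.63 to 0.076 (Ldhb), -1.78 to 0.068 (Slc16a3) and -0.27 to 0.48 (Pdk1). For the hypoxia genes they ranged from -0.94 to 0.91 (Hif1a), -0.011 to 0.22 (Egln1), -2.10 to 1.57 (Egln3), -0.11 to 0.84 (Vegfa), -0.47 to 0.53 (Bnip3), -1.10 to 0.39 (Adm) and -0.56 to 0.29 (Ero1l). Of the 10 family shares, 8 changed direction. In the wider lists, an alternative chosen after seeing the data, fold changes ranged from -2.73 to 0.30 (Slc2a6), -1.09 to 0.38 (Pdk4) and -0.30 to 1.84 (Pgls), and list medians from -0.075 to 0.091, -0.0040 to 0.38 and -0.057 to 0.14. With 2 animals per genotype and unknown depth, differences smaller than the spread within a genotype could not be resolved.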
